A study of Rattus norvegicus with 18 samples.

Results

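The chondroitin sulphate proteoglycans and tenascins were examined as 10 genes in cervical dorsal root ganglia (DRG) of rats. They were chosen by name as the lecticans *Ncan*, *Bcan*, *Acan* and *Vcan*, the membrane proteoglycans *Cspg4* and *Cspg5*, the receptor proteoglycan *Ptprz1*, the link protein *Hapln1* and the tenascins *Tnc* and *Tnr*, after *Ncan* had been seen to be higher with neurotrophin-3 in earlier results of the same data. The counts of *Ncan* between groups are therefore given as a description, without a test. The 10 genes had 16 RefSeq identifiers, of which 12 identifiers of 9 genes were among the 15075 identifiers of the joint count table, and 11 identifiers passed the filter on low counts. *Vcan* was the gene without reads.

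Poly(A) RNA was sequenced from C6-C8 DRG of 18 adult Lister hooded rats, 6 in each of 3 groups. Naïve rats were unoperated. The bPYX+GFP rats had both corticospinal tracts cut at the pyramids of the medulla (bPYX) and, a day later, forelimb flexor injections on a single side of an adeno-associated viral vector (AAV1) that carried green fluorescent protein under the CMV promoter, and the bPYX+NT3 rats received the same surgery and the same vector carrying human neurotrophin-3 (NT3). Ganglia of the injected side were pooled within each rat 10 weeks after surgery, so every value comes from a whole-ganglion homogenate of a single animal. No operated group lacked a vector and no naïve group received one, so that injury, injection and vector cannot be told apart between bPYX+GFP and naïve rats. The bPYX+NT3 versus bPYX+GFP comparison asks what NT3 changed in operated rats.

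Lecticans are core proteins that carry chondroitin sulphate chains, bind hyaluronan at the N-terminal end and bind tenascins at the C-terminal end, and link proteins such as the product of *Hapln1* hold the lectican on the hyaluronan. In the central nervous system this lattice forms perineuronal nets and accumulates in scars, where its chains restrain axon growth through receptors such as PTPσ. In ganglia and nerves, proteoglycans and tenascin-C are made by Schwann and satellite cells, fibroblasts and pericytes as well as by neurons.

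The libraries held 10057787 to 16002410 read-pairs on genes. Between 30.8 and 34.6% of the read-pairs in the count tables lay in no annotated gene feature, a share that is called the no-feature share here. Libraries of rats 11 (bPYX+NT3) and 57 (bPYX+GFP) had the lowest no-feature shares, at 30.8 and 31.7%, and stood apart in many genes, so that results were also computed without them. The no-feature share was 33.6 ± 0.787% in naïve rats, 33.5 ± 0.917% with bPYX+GFP and 32.9 ± 1.11% with bPYX+NT3 (SD, n = 6 each). The smallest p between groups was 0.288 (bPYX+NT3 versus naïve, two-sided exact permutation test). The rats were grouped by the sample numbers of the count table. Of the 18 separate count files, 17 hang on a record of another group, which was run as another grouping. The paper lists *Ncan* as higher in bPYX+NT3 rats than in either other group. The grouping by sample numbers gave that direction and the grouping by records turned it. Values by the groups of the records are given where they turn a direction that the text leads with. Since that grouping runs against the paper for *Ncan*, its turned signs are no measure of how firm a difference is. DRG markers were abundant: *Nefh*, the heavy neurofilament of large sensory neurons, had 1920 to 3582 CPM (reads per 1000000 read-pairs on genes) and the satellite glial cadherin *Cdh19* 218 to 395 CPM. Of the central glial markers, the oligodendrocyte lineage gene *Olig1* had 2 reads in all 18 rats, but *Olig2* had 1.88 to 4.33 CPM and the myelin gene *Mog* 7.47 to 10.9 CPM. *Gja1*, on the astrocyte list, had 61.9 to 113 CPM, and *Aqp4* was listed at 0 for its 4 identifiers, which is no measure of absence in a gene with several identifiers.

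Of the 10 identifiers tested beside *Ncan*, 1 was called for bPYX+GFP versus naïve, 1 for bPYX+NT3 versus naïve and 0 for bPYX+NT3 versus bPYX+GFP. Called means that the quasi-likelihood test of edgeR gave a p under 0.05 before adjustment. Both called members were lecticans of low counts, *Bcan* NM_012916 and *Acan*, and both were higher. In bPYX+GFP versus naïve rats the same rule called 377 of all 11601 genes tested (3.25%), with 0.733% higher and 2.52% lower. In bPYX+NT3 versus naïve rats it called 703 of 11693 (6.01%), with 3.09% higher and 2.92% lower, and in bPYX+NT3 versus bPYX+GFP rats 201 of 11623 (1.73%), with 1.08% higher and 0.654% lower. One identifier of 10 is too few to set the members apart from that background. The median log2 fold change of the 10 was 0.02, 0.00 and 0.03 in the 3 comparisons, beside 0.01, 0.00 and 0.00 over all genes. With Benjamini-Hochberg adjustment over all genes edgeR called 0 genes in each comparison (0.0%), members included. The likelihood ratio test and DESeq2 gave 13 and 16 adjusted calls of all genes in bPYX+GFP versus naïve rats and 0 in the others, and 0 of these were members.

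**Figure D1:**
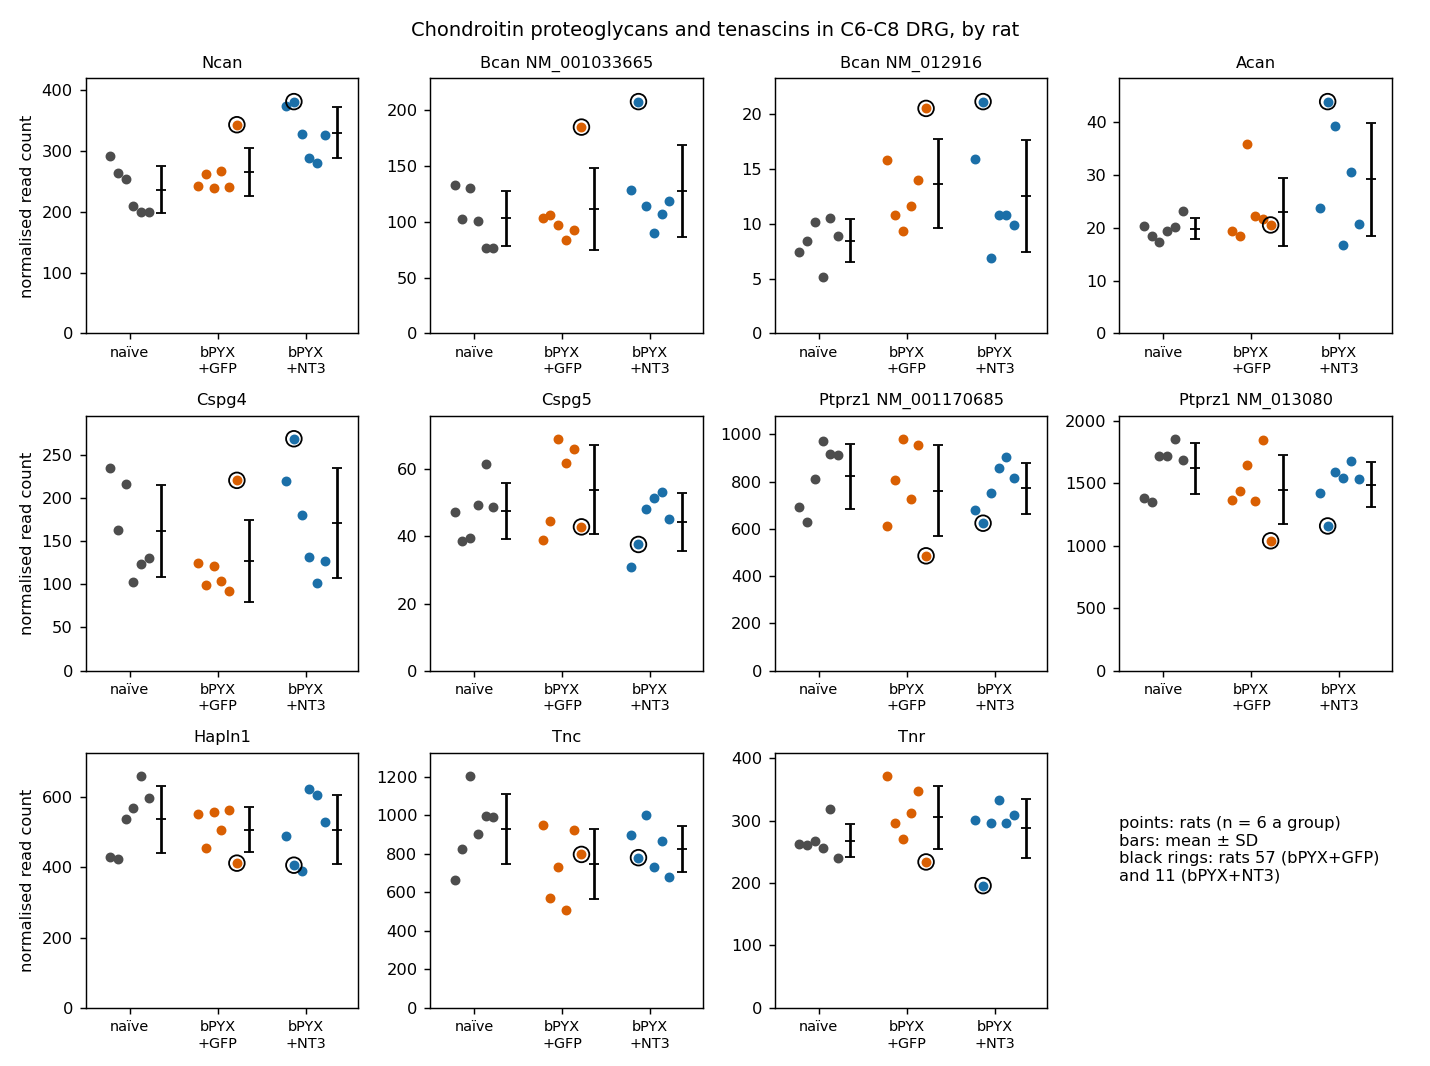
Normalised read count (y axis, from 0) of each of the 11 identifiers in naïve, bPYX+GFP and bPYX+NT3 rats (x axis); points are rats, bars are the mean ± SD (n = 6), and black rings mark rats 57 and 11. *Ncan* rises from a mean of 236 to 330 from naïve to bPYX+NT3, while rats 57 and 11 are the highest of their groups in *Bcan* NM_001033665 and *Cspg4* and the lowest in both *Ptprz1* identifiers.

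*Ncan* encodes neurocan, a lectican of developing and injured nervous tissue. Its normalised read count (counts scaled to the mean effective library size) ran from 199 to 292 with a median of 231 in naïve rats. In bPYX+GFP rats it ran from 239 to 343 with a median of 252, and in bPYX+NT3 rats from 281 to 381 with a median of 327. The bPYX+NT3 rats were thus the high group, but the groups overlapped: 4 of 6 bPYX+NT3 rats were above all naïve rats and 2 of 6 were above all bPYX+GFP rats, of which rat 57 was the highest. As a log2 fold change this was 0.48 ± 0.12 (SE) for bPYX+NT3 versus naïve, 0.31 ± 0.12 for bPYX+NT3 versus bPYX+GFP and 0.17 ± 0.12 for bPYX+GFP versus naïve rats. With the no-feature share as covariate the values were 0.37 ± 0.08, 0.22 ± 0.07 and 0.15 ± 0.05, and without rats 11 and 57 they were 0.44 ± 0.12, 0.36 ± 0.09 and 0.08 ± 0.11. By the groups of the records that hold the separate files the 3 values turned to -0.34, -0.24 and -0.10. That grouping runs against the direction listed in the paper. The first and second comparisons share the bPYX+NT3 rats, and *Ncan* was chosen for being high in them.

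*Bcan* encodes brevican, the shortest lectican, and was counted under 2 identifiers. The main identifier, NM_001033665, ran from 76.4 to 133 (median 102) in naïve, from 83.4 to 185 (median 100.2) in bPYX+GFP and from 89.7 to 208 (median 116) in bPYX+NT3 rats. The groups overlapped almost entirely, and rats 57 and 11 were the high values. The log2 fold change was 0.12 ± 0.21 for bPYX+GFP versus naïve, 0.31 ± 0.20 for bPYX+NT3 versus naïve and 0.20 ± 0.23 for bPYX+NT3 versus bPYX+GFP, with exact permutation p-values of 0.695, 0.223 and 0.424. Without rat 57 the last became 0.41 and passed the threshold, and without rats 11 and 57 it was 0.22 ± 0.12 and did not.

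The other *Bcan* identifier, NM_012916, had 4 to 27 reads in a rat. Its normalised count ran from 5.19 to 10.6 (median 8.66) in naïve, from 9.30 to 20.5 (median 12.8) in bPYX+GFP and from 6.88 to 21.2 (median 10.8) in bPYX+NT3 rats. In bPYX+GFP rats 5 of 6 values lay above all naïve values. It rose by 0.69 ± 0.24 on the log2 scale in bPYX+GFP versus naïve rats (edgeR adjusted p = 1.00, exact permutation p = 0.00866), and by 0.57 ± 0.28, which did not pass, in bPYX+NT3 versus naïve rats (exact permutation p = 0.0974). Only 2 naïve and 4 bPYX+GFP rats had more than 10 reads, so it passed the filter of more than 10 reads in 6 rats with no rat to spare, and chiefly through the group in which it was high. It could not be tested once any of these 6 rats was left out, and by the groups of the records its difference was -0.48. Reads in sequence shared by the transcripts of a gene may be counted as ambiguous, so the 2 identifiers do not add up to the level of brevican mRNA.

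*Acan* encodes aggrecan, the large lectican of cartilage and perineuronal nets. It was scarce, with 14 to 56 reads in a rat. Normalised counts ran from 17.3 to 23.2 (median 19.8) in naïve, from 18.4 to 35.9 (median 21.1) in bPYX+GFP and from 16.7 to 43.9 (median 27.2) in bPYX+NT3 rats. The bPYX+NT3 group was the most scattered, with 4 of 6 rats above all naïve rats and 1 below them all. *Acan* rose by 0.56 ± 0.23 on the log2 scale in bPYX+NT3 versus naïve rats (edgeR adjusted p = 0.607), while the exact permutation p was 0.0714. The call was lost without rat 11 (0.41), rat 17 (0.48) or rat 43 (0.53), or when the no-feature share was a covariate (0.39 ± 0.22), and by the groups of the records *Acan* was called in the opposite direction, at -0.57 ± 0.23. In bPYX+NT3 versus bPYX+GFP rats the difference was 0.36 ± 0.26 (exact permutation p = 0.281).

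*Vcan*, the gene of versican, is listed at 0 for all 4 of its identifiers in every rat. A count of 0 here is no measure of absence, since HTSeq was run on identifiers and genes with several identifiers were often without reads: 10.3% of the 15223 genes with 1 identifier were at 0 in all rats, against 22.9% of 328 genes with 2 and 61.3% of 31 genes with 4. Of the 6 identifiers of *Mbp*, an abundant myelin gene, 5 were at 0.

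*Cspg4* encodes NG2, a membrane proteoglycan of pericytes and glial precursors. Its normalised counts ran from 102 to 234 (median 147) in naïve, from 92.7 to 221 (median 112) in bPYX+GFP and from 101 to 269 (median 156) in bPYX+NT3 rats. Apart from rat 57 at 221, the highest bPYX+GFP rat was at 125, and the groups overlapped with or without that rat. Over all rats the log2 difference was -0.34 ± 0.25 for bPYX+GFP versus naïve (exact permutation p = 0.199) and 0.43 ± 0.27 for bPYX+NT3 versus bPYX+GFP (exact permutation p = 0.154). Both passed the threshold without rat 57, at -0.59 ± 0.20 and 0.67. Without rat 11 as well the second was 0.50 ± 0.19 (edgeR adjusted p = 0.726 for the first and 0.385 for the second). With the no-feature share as covariate the first was -0.41 ± 0.13 and passed, and the second was 0.22 ± 0.16 and did not. The covariate and the removal of both rats were chosen after seeing the data. Markers of pericytes and smooth muscle stood the same way for bPYX+NT3 versus bPYX+GFP. All 6 genes of that list had log2 differences above 0 there (median log2 difference 0.41, against 0.005 over all genes), 1 of them passing (*Acta2*, 0.56 ± 0.26, not called with the covariate at 0.40). For bPYX+GFP versus naïve rats 2 of the 6 were above 0 and 4 below (median -0.15), and 0 were called. The summed level of the list ran from 99.7 to 171 CPM in bPYX+GFP and from 109 to 223 CPM in bPYX+NT3 rats. The part of the mural cells in the *Cspg4* values was not tested. In whole ganglia, fewer cells of a type and less RNA per cell cannot be told apart.

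*Cspg5* encodes neuroglycan C, a neuronal membrane proteoglycan with an EGF-like domain. NM_019284 ran from 38.5 to 61.6 (median 48.0) in naïve, from 38.9 to 69.1 (median 53.2) in bPYX+GFP and from 30.9 to 53.2 (median 46.6) in bPYX+NT3 rats, and its other identifier NM_133652 had 1 read in all 18 rats. The groups overlapped, with 3 of 6 bPYX+GFP rats above all naïve rats. The largest difference was -0.28 ± 0.19 on the log2 scale, for bPYX+NT3 versus bPYX+GFP (exact permutation p = 0.190).

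*Ptprz1* encodes a receptor tyrosine phosphatase that is itself a chondroitin sulphate proteoglycan, with pleiotrophin and midkine as ligands. NM_013080 ran from 1353 to 1857 (median 1700.4) in naïve, from 1040.0 to 1846 (median 1401) in bPYX+GFP and from 1159 to 1682 (median 1540) in bPYX+NT3 rats. NM_001170685 ran from 627 to 972, from 486 to 981 and from 624 to 904. Both identifiers overlapped over most of their range, and rats 57 and 11 were the lowest of their groups in each. Their log2 differences lay between -0.16 and 0.04 over the 3 comparisons (exact permutation p from 0.255 to 0.801). With the no-feature share as covariate NM_013080 passed the threshold as lower in bPYX+GFP than in naïve rats (-0.15 ± 0.07) and higher in bPYX+NT3 than in bPYX+GFP rats (0.16 ± 0.07, edgeR adjusted p = 0.653 and 1.00). Its ligands *Ptn* and *Mdk* were tested in each comparison and 0 of 2 were called.

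*Hapln1*, the link protein, was the member with the smallest differences. It ran from 424 to 661 (median 554) in naïve, from 412 to 565 (median 530.0) in bPYX+GFP and from 390.1 to 624 (median 510) in bPYX+NT3 rats. The group means of 537, 508 and 508 lay within 1 SD of each other, at 94.3, 62.9 and 98.1. The log2 fold change of bPYX+NT3 versus bPYX+GFP was -0.0018 ± 0.13 (exact permutation p = 0.916).

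*Tnc* encodes tenascin-C, a matrix glycoprotein of fibroblasts and Schwann cells that rises in injured nerve. It ran from 662 to 1206 (median 947) in naïve, from 507 to 949 (median 765) in bPYX+GFP and from 680.4 to 1004 (median 823) in bPYX+NT3 rats. The naïve group was the highest but overlapped with both, with 2 of 6 bPYX+GFP rats below all naïve rats. The log2 difference was -0.32 ± 0.17 for bPYX+GFP versus naïve (exact permutation p = 0.117) and -0.17 ± 0.13 for bPYX+NT3 versus naïve (exact permutation p = 0.299). The first passed edgeR's threshold without rat 41 (-0.40), rat 5 (-0.40) or rat 52 (-0.39), and the second without rat 41 (-0.25). Fibroblast markers were lower in the same groups. Of 5 identifiers tested, 3 fell in bPYX+GFP versus naïve rats (*Col1a1*, *Col3a1* and *Lum*), beside 2.52% of all genes. In bPYX+NT3 versus naïve rats 3 fell (*Col1a1*, *Col3a1* and *Dcn*), beside 2.92% of all genes. The *Lum* call was lost without rats 11 and 57 (-0.19). That of *Dcn* was lost there (-0.20) and with the covariate (-0.19), and those of the collagens stood in both fits. The summed level of the fibroblast list ran from 2120 to 3118 CPM in naïve, from 1938 to 2544 CPM in bPYX+GFP and from 1732 to 2826 CPM in bPYX+NT3 rats. No fibroblast gene was called for bPYX+NT3 versus bPYX+GFP, and the part of fibroblast RNA in the *Tnc* values was not tested.

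*Tnr* encodes tenascin-R, which in the central nervous system is made by oligodendrocytes and crosslinks lecticans. It ran from 240.2 to 318 (median 262) in naïve, from 234 to 372 (median 305) in bPYX+GFP and from 196 to 333 (median 299) in bPYX+NT3 rats. The groups overlapped. The log2 difference was 0.19 ± 0.11 for bPYX+GFP versus naïve (exact permutation p = 0.147) and 0.10 ± 0.12 for bPYX+NT3 versus naïve (exact permutation p = 0.487). The first passed without rat 57 (0.25 ± 0.09) or rat 45 (0.24), and the second without rat 11 (0.19 ± 0.08). No oligodendrocyte marker was called as higher. Their summed level ran from 117 to 170 CPM in naïve, from 104 to 157 CPM in bPYX+GFP and from 103 to 160 CPM in bPYX+NT3 rats. Most of this sum was *Pdgfra*, which is also on the fibroblast list and alone had 79.9 to 140 CPM over the 18 rats. *Mog* was called as lower in bPYX+NT3 versus naïve rats (-0.29 ± 0.10).

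**Figure D2:**
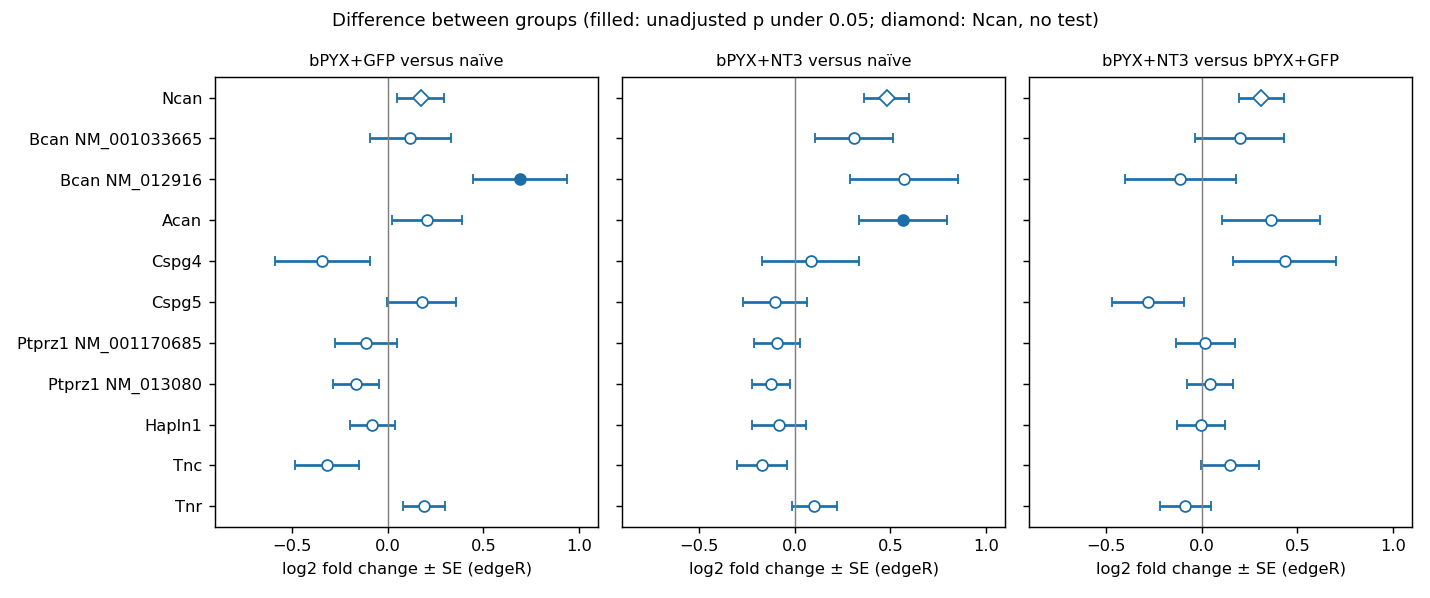
Log2 fold change ± SE (x axis, edgeR) of each identifier (y axis) in the 3 comparisons; filled circles passed an unadjusted p of 0.05 and the open diamond is *Ncan*, which was not tested. *Bcan* NM_012916 is the filled point at 0.69 in bPYX+GFP versus naïve rats and *Acan* that at 0.56 in bPYX+NT3 versus naïve rats.

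Counted without the 2 libraries that stood apart, 2 of 9 identifiers beside *Ncan* were called in bPYX+GFP versus naïve rats (*Cspg4* lower and *Tnr* higher, background 5.16%), 1 of 9 in bPYX+NT3 versus naïve rats (*Tnr* higher, background 3.14%) and 1 of 10 in bPYX+NT3 versus bPYX+GFP rats (*Cspg4* higher, background 12.7%). With the no-feature share as covariate 3 of 10 were called in bPYX+GFP versus naïve rats (*Bcan* NM_012916, *Cspg4* and *Ptprz1* NM_013080, background 7.31%), 0 of 10 in bPYX+NT3 versus naïve rats (background 4.11%) and 1 of 10 in bPYX+NT3 versus bPYX+GFP rats (*Ptprz1* NM_013080, background 1.94%). Of the calls over all rats, that of *Acan* was made in neither of these fits, although *Acan* was tested in both. That of *Bcan* NM_012916 was also made with the covariate. Without the libraries that stood apart, this identifier did not pass the filter for bPYX+GFP versus naïve rats and could not be tested. It passed the filter over all rats chiefly through the group in which it was high, so the call with the covariate does not show that the difference holds.

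Several members varied together from rat to rat. Unless stated, r, rho and p of the pairs use all 18 rats without subtracting group means, so that group differences enter them. *Bcan* NM_001033665 and *Cspg4* were high in the same rats (r = 0.76, rho = 0.64, adjusted permutation p = 0.00338 and 0.0255, r = 0.64 without the 2 rats farthest from the median), and *Bcan* ran against *Hapln1* at r = -0.69 and rho = -0.69 (adjusted permutation p = 0.00909 and 0.0163, r = -0.57 without the 2 farthest rats). *Bcan* with *Ptprz1* NM_013080 had r = -0.70 and rho = -0.48 (adjusted permutation p = 0.0113 and 0.121), and r was -0.32 without rats 57 and 11, so that this relation rested on them. *Cspg4* with *Ptprz1* NM_013080 had r = -0.56 and rho = -0.50 (adjusted permutation p = 0.0436 and 0.105, r = -0.43 without the 2 farthest rats), and *Cspg4* with *Hapln1* r = -0.63 and rho = -0.57 (adjusted permutation p = 0.0254 and 0.050, r = -0.50 without them). Of 45 pairs of identifiers beside *Ncan*, 5 correlated positively and 12 negatively with an adjusted permutation p of r under 0.05, and by rho these were 6 and 5. The pair of *Ptprz1* identifiers had the highest r, at 0.91. With group means subtracted, r was 0.82 for *Bcan* NM_001033665 with *Cspg4* and -0.69 for it with *Hapln1*. Such relations were not particular to the members. After group means were subtracted, 42.8% of 11820 genes had r past 0.7 in size with *Bcan* NM_001033665 and 45.2% with *Cspg4*. Over all members this share ran from 0.22% (*Acan*) to 46.9% (*Ptprz1* NM_001170685). *Ncan* went with *Bcan* NM_001033665 and *Cspg4*, with r of 0.84 and 0.87 after each group's mean was subtracted, and against *Hapln1* and *Ptprz1* NM_013080, with r of -0.83 and -0.81 (18 rats, given as a description). Without subtracting group means these 4 values of r were 0.77, 0.63, -0.66 and -0.66. With *Acan* and *Tnc* the r of *Ncan* was 0.02 and -0.22 after group means were subtracted, and 0.37 and -0.24 without that step.

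Several members also varied with the no-feature share of the library. Over 18 rats, log2 CPM of *Bcan* NM_001033665 correlated with the no-feature share at r = -0.94 and rho = -0.89 (both adjusted permutation p = 1e-04 over 10 relations, the smallest they can give). Without rats 11 and 57, the 2 farthest from the median share, r was -0.83. *Cspg4* stood at r = -0.76 and rho = -0.66 (adjusted permutation p = 0.000333 and 0.00692, r = -0.64 without the 2 rats), and *Hapln1* at r = 0.79 and rho = 0.84 (adjusted permutation p = 1e-04 and 0.00015, r = 0.77 without them). The *Ptprz1* identifiers had r of 0.76 and 0.78 (adjusted permutation p = 0.00064 for each) and *Cspg5* had r = 0.54 and rho = 0.68 (adjusted permutation p = 0.0264 and 0.0057). *Tnr*, with r = 0.60, dropped to 0.10 without rats 11 and 57, so that its relation rested on them. Group means were not subtracted for these values. With them subtracted, r was -0.93 for *Bcan* NM_001033665, -0.80 for *Cspg4* and 0.80 for *Hapln1*. Within the groups the r of *Bcan* NM_001033665 was -0.85 (naïve), -0.94 (bPYX+GFP) and -0.98 (bPYX+NT3), and that of *Ncan* was -0.98, -0.97 and -0.74. This was not particular to the proteoglycans, since 48.7% of all 11821 genes with enough reads had an r with the no-feature share past 0.7 in size within groups, 2826 above 0.7 and 2930 below -0.7. Its part in the group differences of *Ncan* was not tested beyond the fit with that share as a covariate.

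**Figure D3:**
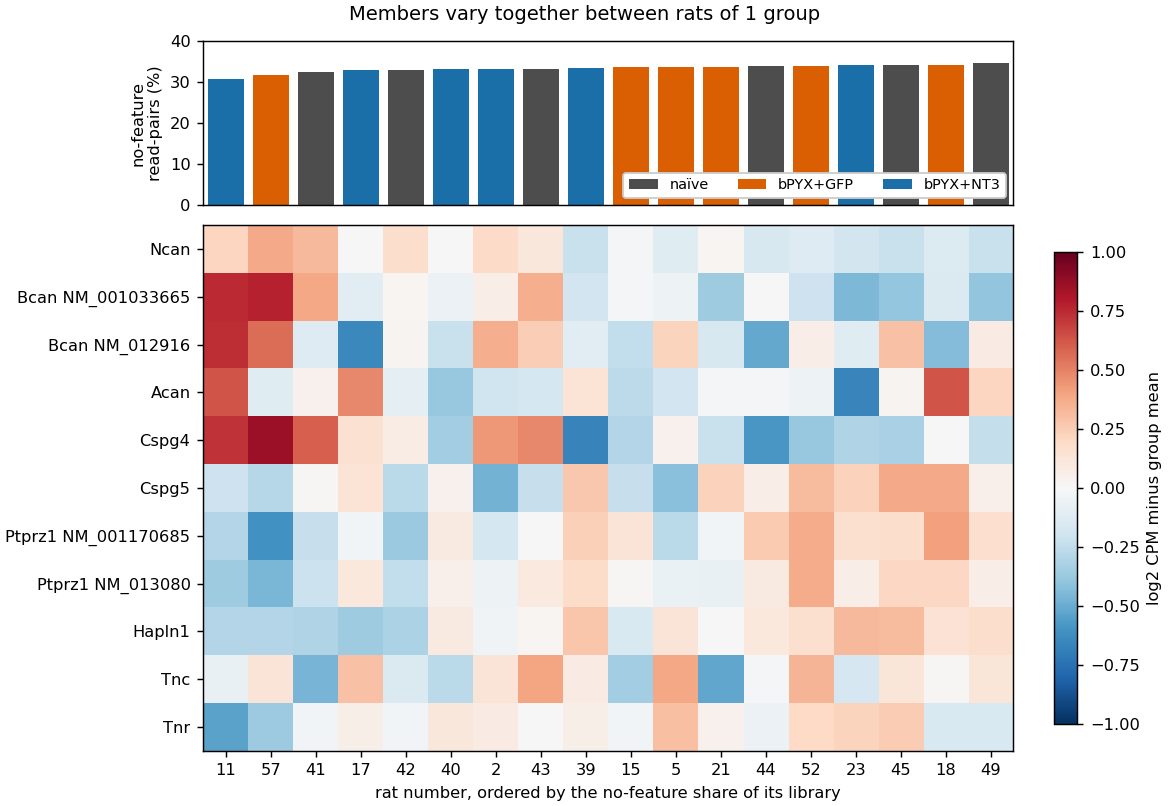
Top, no-feature share (% of read-pairs) of each of the 18 libraries, coloured by group. Bottom, log2 CPM minus the group mean (colour, from blue at -1 to red at 1) of each identifier (rows) in the same rats (columns), ordered by that share. *Ncan*, *Bcan* NM_001033665 and *Cspg4* are red at the low end, with rats 11 and 57, and blue at the high end, while *Ptprz1* and *Hapln1* run the other way.

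The genes most like each member were named by Pearson's r of log2 CPM over 18 rats after each group's mean was subtracted. For *Ncan* they were *Unc13a*, a synaptic vesicle priming factor (r = 0.95), the endocytic GTPase *Dnm2* (0.95) and *Smarcd2* (0.95), but 2743 of 11820 genes had r over 0.7 with it and 2504 had r under -0.7. For *Bcan* NM_001033665 they were *Lhpp*, *Ldhb* and *Dnajb2* (0.95 to 0.96), and for *Cspg4* *Fxyd6*, NM_001135007 and *Arvcf* (0.96 each). *Ptprz1* NM_001170685 was most like *Nus1*, NM_001107400 and *Morf4l2* (0.97 to 0.98), and NM_013080 like *Macir*, *Fam98a* and *Retreg1* (0.95 to 0.96). *Hapln1* was most like *Gpr22*, *Htr2c* and *Herc3* (0.93 to 0.95). The likenesses of the other members were weaker and in fewer genes: *Tnc* with *Pcdh12*, *Tmprss13* and *Tmprss5* (0.83 to 0.84, 17 genes over 0.7), *Tnr* with NM_001169130, *Grk5* and *Spef2* (0.83 each), *Acan* with *Dpagt1*, *Prelid3b* and *Rnf181* (0.73 to 0.75, 4 genes over 0.7), *Cspg5* with *Casp2*, *Plppr5* and *Mfsd9* (0.84 to 0.88) and *Bcan* NM_012916 with *Paqr4*, *Tomm34* and *Snap47* (0.85 to 0.86). All points are rats whose libraries share depth, composition and the no-feature share, and no p is given.

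The promoters of 3 members show the sequences of genes that went together or apart over the rats: *Ncan* and *Bcan*, which went together, and *Hapln1*, which went against them. RefSeq promoters in build GRCr8 were matched by symbol for 8 of the 10 genes. Each line gives the 250 bases before the annotated start, 5′ to 3′ on the gene's strand, with GC boxes (GGGCGG on either strand, the core of sites for Sp1 family factors) in capitals.
Ncan, chr16:19335657-19335906, plus strand: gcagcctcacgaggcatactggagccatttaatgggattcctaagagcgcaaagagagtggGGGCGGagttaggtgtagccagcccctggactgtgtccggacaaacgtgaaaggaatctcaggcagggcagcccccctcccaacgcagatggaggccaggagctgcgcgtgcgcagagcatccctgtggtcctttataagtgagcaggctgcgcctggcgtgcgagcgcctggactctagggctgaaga
Bcan, chr2:175765315-175765564, minus strand: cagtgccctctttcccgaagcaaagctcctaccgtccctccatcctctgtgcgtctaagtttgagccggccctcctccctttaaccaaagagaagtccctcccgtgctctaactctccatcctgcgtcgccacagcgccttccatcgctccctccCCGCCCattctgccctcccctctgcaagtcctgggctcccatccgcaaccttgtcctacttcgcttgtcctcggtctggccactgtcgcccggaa
Hapln1, chr2:22366717-22366966, plus strand: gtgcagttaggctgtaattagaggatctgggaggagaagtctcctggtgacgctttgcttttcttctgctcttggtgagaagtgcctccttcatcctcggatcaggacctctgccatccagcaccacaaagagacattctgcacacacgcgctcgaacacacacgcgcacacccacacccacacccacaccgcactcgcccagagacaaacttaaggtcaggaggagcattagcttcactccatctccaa
*Ncan* and *Bcan* each held 1 GC box, as did 30.5% of all 33469 promoter windows of 250 bases, at least 1 being counted, and *Hapln1* held 0. The GC content was 60.8% for *Ncan*, 61.2% for *Bcan* and 54.0% for *Hapln1*, against a median of 51.2% over all windows. The TATA box letters TATAAA, on either strand, were found once in *Ncan* and in 12.9% of all windows, and were in neither of the others. These letters are a description of the windows and say nothing of what binds there. Among the other members the GC content ran from 36.8% (*Tnr*) to 73.6% (*Acan*).

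The other genes of the pathway were read from lists chosen by what they encode. Over 8 lists for chain synthesis, chain sulphation, other core proteins, hyaluronan, receptors, *Ptprz1* ligands, proteases and lysosomal breakdown, 5 of 78 identifiers (6.41%) were called in bPYX+GFP versus naïve rats, all 5 lower, beside 3.25% of all genes. Calls over all genes leaned the same way there, with 2.52% lower and 0.733% higher. Of the 5, *Chst3* passed the filter only in comparisons with the naïve rats, in which it was high. In bPYX+NT3 versus naïve rats 9 of 79 (11.4%) were called, 6 higher and 3 lower, beside 6.01% of all genes (3.09% higher and 2.92% lower). In bPYX+NT3 versus bPYX+GFP rats 2 of 78 (2.56%) were called, 1 in each direction, beside 1.73% (1.08% higher and 0.654% lower). The median log2 fold changes of the 3 comparisons were 0.00, 0.00 and 0.07, beside 0.01, 0.00 and 0.00 over all genes. Without rats 11 and 57 the counts were 10 of 78, 4 of 79 and 16 of 76, beside 5.16, 3.14 and 12.7% of all genes. The last held 13 higher and 3 lower, beside 858 higher and 604 lower over all genes. With the no-feature share as covariate they were 10, 4 and 3, beside 7.31, 4.11 and 1.94%.

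Among 13 chain synthesis genes tested there was 1 call over the 3 comparisons. *Chpf2*, a chondroitin polymerizing factor, ran from 296 to 380 in naïve and from 333 to 454 in bPYX+NT3 rats and rose by 0.25 ± 0.09 on the log2 scale. Of 9 sulphotransferase and sulphate donor genes, *Chst15*, which adds the second sulphate of chondroitin sulphate E, rose by 0.20 ± 0.08 in bPYX+NT3 versus naïve rats. *Chst3*, the main chondroitin 6-O-sulphotransferase, fell by 0.66 ± 0.27 in bPYX+GFP versus naïve rats, from a median normalised count of 14.2 to 8.99. It had only 211 reads in all 18 rats and did not pass the filter for bPYX+NT3 versus bPYX+GFP. It thus passed only in comparisons that held the naïve rats, in which it was high, and its call is a weak one. The *Chpf2* call stood without rats 11 and 57 (0.21) and under the covariate (0.17). *Chst3* was also called in both fits (-0.74 and -0.62). Both fits keep all naïve rats, through which it passed the filter, so they do not show that its difference holds. The *Chst15* call was lost in both fits (0.17 and 0.15).

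Among 9 other core proteins, *Epyc*, a small leucine-rich proteoglycan of cartilage, fell in both operated groups. Its median was 81.7 in naïve rats, 51.1 with bPYX+GFP and 59.3 with bPYX+NT3, with log2 fold changes of -0.60 ± 0.18 and -0.45 ± 0.17 against naïve, which share the naïve rats. *Dcn*, the decorin gene, which is also on the fibroblast marker list, fell by 0.28 ± 0.13 in bPYX+NT3 versus naïve rats, a call lost without rats 11 and 57 (-0.20). None of the 9 was called for bPYX+NT3 versus bPYX+GFP.

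The hyaluronan list had 12 tested genes. *Tnfaip6*, whose product TSG-6 modifies hyaluronan in inflammation, fell by 0.58 ± 0.23 in bPYX+GFP versus naïve rats. In bPYX+NT3 versus naïve rats the link protein gene *Hapln4*, whose product holds brevican in perineuronal nets, rose by 0.35 ± 0.14 and the hyaluronan receptor gene *Hmmr* fell by 0.23 ± 0.10. Both calls were lost without rats 11 and 57, at 0.23 and -0.16. For bPYX+NT3 versus bPYX+GFP the hyaluronan synthase gene *Has3* was lower, at -0.53 ± 0.19 with medians of 10.8 and 17.1, and the hyaluronidase gene *Cemip2* was higher by 0.14 ± 0.06. *Has3* had only 257 reads in all 18 rats, near the filter on low counts, so its call is a weak one. *Cemip2* kept its call without rats 11 and 57 (0.14) and *Has3* did not (-0.47).

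Of 12 receptor and binding partner genes, the integrin subunit gene *Itgb3* fell by 0.89 ± 0.27 in bPYX+GFP versus naïve rats, from a median of 39.4 to 22.1. In bPYX+NT3 versus naïve rats the adhesion genes *Nfasc*, of nodes of Ranvier, and *Ncam1* rose by 0.36 ± 0.16 and 0.16 ± 0.06. Of the protease list, the membrane metalloproteinase gene *Mmp14* fell by 0.25 ± 0.11 in bPYX+GFP versus naïve rats (14 tested), and *Adamts9*, which cleaves aggrecan and versican, rose by 0.27 ± 0.12 in bPYX+NT3 versus naïve rats (15 tested). Without rats 11 and 57 the calls of *Nfasc* (0.29) and *Adamts9* (0.26) were lost, and *Itgb3* (-0.99), *Mmp14* (-0.29) and *Ncam1* (0.14) were called. The 7 lysosomal enzymes that break the chains down had 0 calls in each comparison. None of these genes passed adjustment over all genes in edgeR.

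**Figure D4:**
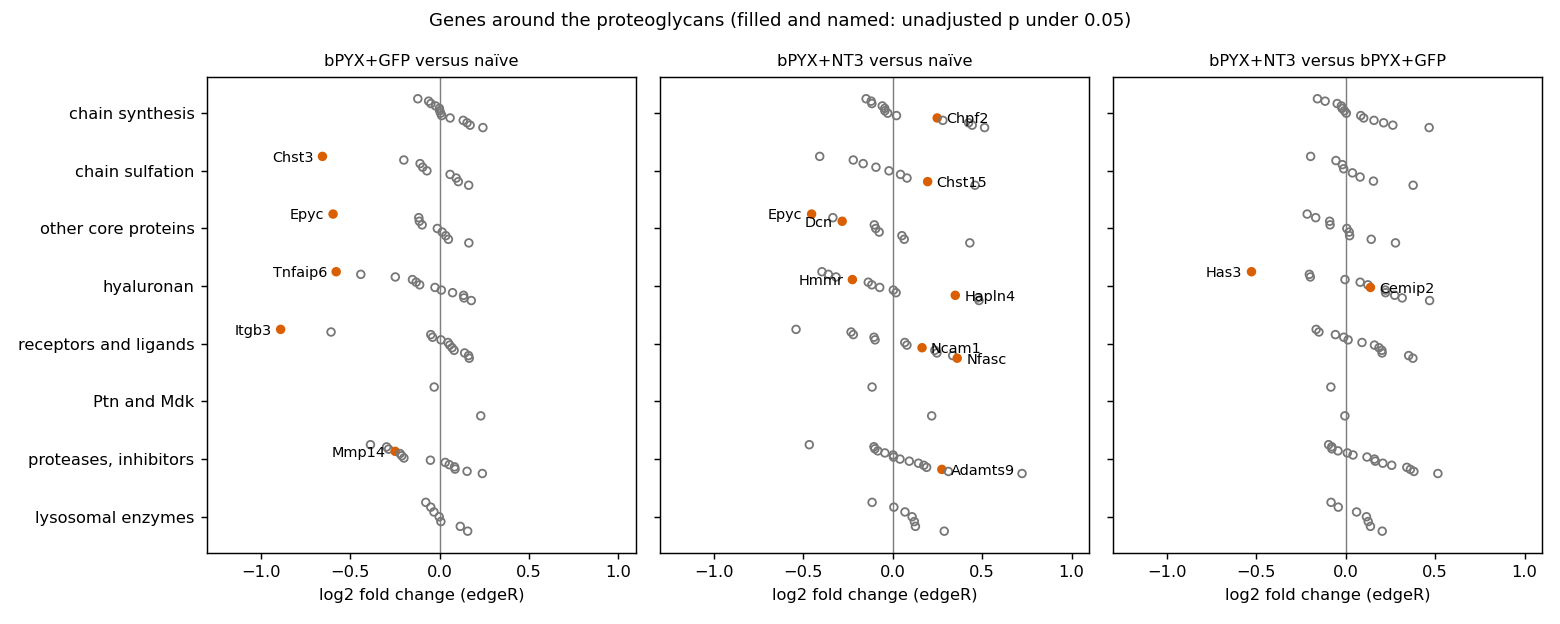
Log2 fold change (x axis, edgeR) of each tested gene of the 8 related lists (y axis) in the 3 comparisons; filled and named points passed an unadjusted p of 0.05. All 5 named genes lie below 0 in bPYX+GFP versus naïve rats, where 2.52% of all genes were called lower and 0.733% higher. In bPYX+NT3 versus naïve rats 6 lie above and 3 below, where 3.09% of all genes were called higher and 2.92% lower. In bPYX+NT3 versus bPYX+GFP rats 2 are named, 1 in each direction.

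Markers of the cells that make these proteins were read the same way. The lists are named by cell type, but which cells of the whole ganglion the reads came from was not tested. Of the myelinating Schwann identifiers, *Pmp22* and *Egr2* fell in bPYX+GFP versus naïve rats and *Pmp22* in bPYX+NT3 versus naïve rats. Of 4 genes on the non-myelinating Schwann list, *Gfap* fell in bPYX+GFP versus naïve rats (-0.70 ± 0.20) and was higher in bPYX+NT3 than in bPYX+GFP rats (1.26 ± 0.37). Its bPYX+NT3 values were widely spread, from 79.4 to 420 in rat 17. Their median of 124 lay beside 130 in naïve and 72.3 in bPYX+GFP rats. *Ngfr* (0.34 ± 0.14) and *Ncam1* rose in bPYX+NT3 versus naïve rats. Without rats 11 and 57 *Ngfr* was not called (0.23), and with the covariate it was called at 0.18. Of the satellite glial identifiers, *Kcnj10* was higher in bPYX+NT3 than in bPYX+GFP rats (0.42 ± 0.15). The endothelial gene *Flt1* rose and *Mog* fell in bPYX+NT3 versus naïve rats, and 0 of 7 neuronal and 0 of 5 macrophage identifiers were called in any comparison.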

How the data were processed

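Poly(A) RNA libraries of C6-C8 DRG from 18 rats (6 a group) were made with a stranded kit. Per the study's methods, the authors aligned reads with TopHat2 to Rnor_6.0, removed duplicates with Picard and made the deposited counts per RefSeq identifier with HTSeq. Values are raw counts, not normalised. Rats were grouped by the sample numbers in the headings of the joint table, which GEO's descriptions repeat, and 0 columns of other samples were used. Read-pairs in no feature (30.8 to 34.6%), ambiguous (2.79 to 3.41%) or at several locations (19.0 to 22.3%) were left out of library sizes.

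Each comparison was fitted on its 12 rats in edgeR 4.0.16 (R 4.3.3) with TMM factors, glmQLFit and glmQLFTest, after a filter of more than 10 reads in at least 6 rats, with Benjamini-Hochberg adjustment over all genes. Exact permutation tests (two-sided, 924 splits, smallest p 0.0022) used log2 CPM with a prior count of 2. Permutation p-values of correlations came from 100000 resamples. Alternatives included the likelihood ratio test, DESeq2 1.42.0, other scalings and filters, and leaving out each rat. Scripts were tested on simulated data. Figures were drawn with matplotlib 3.10.9, and other steps ran in Python 3.11.15 (scipy 1.17.1, numpy 2.4.6, pandas 2.3.3).

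The members and lists were chosen with earlier results of these data known. Named genes are the members, called genes of the lists, the first 3 markers of each marker list where a result turns on them, and the 3 genes most like each member. A part of that rule that ranked genes by level per length was not applied, since no transcript lengths were used here. Each rat is a separate animal, and the p-values measure the spread between animals. Results of some marker genes are not reported here.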

Additional observations from a re-analysis of the deposited data

Results flagged for a closer look

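In 17 of 114 groups of 6 rats tested, of which 33 were groups of members, the highest or lowest rat stood apart from the rest by Dixon's 95% critical value. Chance gives about 1 in 20 groups. Rat 57 was the value that stood apart in 9 of them and rat 11 in 2, and genes of these libraries are not independent.

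Among the members 7 groups held such a value. Rat 57 of the bPYX+GFP group had the highest normalised count of *Ncan* (343, next rat 267), of *Bcan* NM_001033665 (185, next 106) and of *Cspg4* (221, next 125). Rat 11 of the bPYX+NT3 group was highest in *Bcan* NM_001033665 (208, next 129) and lowest in *Tnr* (196, next 296). Rat 18 of the bPYX+GFP group was highest in *Acan* (35.9, next 22.3), and rat 45 of the naïve group was highest in *Tnr* (318, next 268).

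Among related and marker genes, rat 57 was highest of the bPYX+GFP group in *Chst15* (621), *Hapln4* (1124), *Ncam1* (2245), *Nfasc* (169.6) and *Ngfr* (5930.2) and lowest in *Hmmr* (188). In the naïve group rat 42 was highest in *Acta2* (431) and *Adamts9* (448) and rat 45 was lowest in *Has3* (7.04). In the bPYX+NT3 group rat 17 was highest in *Itgb3* (47.2).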

How the results depend on the processing

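Of the member log2 fold changes recomputed under the alternatives, 667 kept their direction and their side of the threshold. *Ncan* was counted by direction alone, since it was not tested. Another 20 passed the threshold anew, 5 no longer passed (all of *Acan* for bPYX+NT3 versus naïve) and 52 changed sign. Fits in which *Bcan* NM_012916 did not pass the filter, so that its call could not be made, are not in this count. Of the sign changes, 23 came from the groups of the records. That grouping runs against the direction of *Ncan* listed in the paper. The causes of the changes were not tested. The likelihood ratio test, DESeq2, DESeq2 size factors, no filter and robust estimation changed none of them, and 30 exact p-values with a prior count of 0.5 stayed on their side. Members called were 1, 1 and 0 in the comparisons of bPYX+GFP with naïve, of bPYX+NT3 with naïve and of bPYX+NT3 with bPYX+GFP. The first became 0 with filterByExpr, which removed *Bcan* NM_012916, and the second 2 with 1 fit over the 3 groups. By the groups of the records they were 0, 1 and 1, of which the second was *Acan* called in the opposite direction (-0.57) and the third *Tnc* (0.45). With the no-feature share as covariate they were 3, 0 and 1, and without rats 11 and 57 they were 2, 1 and 1. Both of these were chosen after seeing the data. Leaving out 1 rat gave 0 to 2 in each comparison.

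Signs changed by the groups of the records were, in the same order of comparisons, *Ncan* -0.10, -0.34 and -0.24, *Bcan* NM_012916 -0.48, -0.21 and 0.27, *Acan* -0.50, -0.57 and -0.074, and *Hapln1* 0.13, 0.23 and 0.11. For bPYX+GFP and bPYX+NT3 versus naïve they were *Bcan* NM_001033665 -0.27 and -0.20, *Ptprz1* NM_001170685 0.048 and 0.18, and NM_013080 0.034 and 0.19. For bPYX+NT3 versus naïve they were *Cspg4* -0.20, *Cspg5* 0.20, *Tnc* 0.24 and *Tnr* -0.057, and *Cspg5* was 0.056 versus bPYX+GFP. With the covariate, bPYX+NT3 versus naïve gave *Cspg4* -0.18, *Ptprz1* NM_001170685 0.037 and *Hapln1* 0.067, and bPYX+NT3 versus bPYX+GFP gave *Bcan* NM_001033665 -0.028, *Hapln1* 0.092 and *Tnr* 0.022. Without rats 11 and 57, *Bcan* NM_001033665 was -0.10 (bPYX+GFP versus naïve), *Cspg4* -0.090 (bPYX+NT3 versus naïve), *Ptprz1* NM_001170685 -0.027 and *Hapln1* 0.0014 (bPYX+NT3 versus bPYX+GFP). By library size alone the last was 0.033.

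Leaving out 1 rat turned 18 signs, all of differences that had not been called. For bPYX+NT3 versus bPYX+GFP the ranges were -0.0055 to 0.41 for *Bcan* NM_001033665, -0.34 to 0.054 for NM_012916, -0.068 to 0.065 for *Hapln1*, -0.082 to 0.10 for *Ptprz1* NM_001170685, -0.037 to 0.12 for NM_013080 and -0.15 to 0.0032 for *Tnr*. For *Bcan* NM_001033665 (bPYX+GFP versus naïve) the range was -0.10 to 0.20, and for *Cspg4* (bPYX+NT3 versus naïve) -0.090 to 0.22. The 3 most like genes were shared in fewer than 2 for 7 of 11 identifiers when group means were not subtracted (0 for *Ncan*). No paired analysis was possible because the columns carry rat and sample numbers, which do not pair rats across groups. Low counts limit *Acan* (14 to 56 reads) and *Bcan* NM_012916 (4 to 27 reads).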
